A study of Arabidopsis thaliana with 4 samples.

Results

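The Casparian strip genes of the endodermis described here are 7 of the 23425 genes with reads in 4 root RNA libraries of *Arabidopsis thaliana*. They were picked by gene identifier, as genes with known roles at the strip, in a list made with earlier results of these data known: *CASP1* (AT2G36100), *CASP2* (AT3G11550), *CASP4* (AT5G06200), *CASP5* (AT5G15290), *ESB1* (AT2G28670), *MYB36* (AT5G57620) and *SGN3* (AT4G20140). For each gene the reads of its transcript models were added up, and all 7 genes had reads in every library. The libraries are *arf7*-NAA, *arf7*-Mock, WT-NAA and WT-Mock, with 1 library for each. WT is the accession Col-0. The *arf7* seedlings carry a T-DNA insertion in the auxin response factor gene *ARF7* in the same accession, and the line is a single insertion allele. NAA stands for exposure to naphthalene acetic acid, a synthetic auxin, given at 10 µM for 4 hours, and Mock stands for seedlings without it. All seedlings were 8 days old on half-strength medium, and RNA came from the roots (primary roots, in the study's description), so the endodermis is 1 of many cell layers in each library. The dose and time come from the methods and not from the labels, and the deposited comparison tables carry a tag on the NAA libraries that is not explained. The labels describe growth in darkness and the methods a greenhouse with a photoperiod, and the files do not settle which applies.

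The Casparian strip is a belt of lignin in the walls between neighbouring endodermal cells that stops solutes from passing between the cells into the vascular cylinder. CASP proteins gather in the plasma membrane under the future strip and form a platform to which peroxidases, laccases, dirigent proteins and uclacyanins are brought for local lignin deposition. The transcription factor MYB36 switches on *CASP* genes and other strip genes, and the receptor kinase SGN3 senses CIF peptides that leak through an unfinished strip.

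The *CASP* genes are close relatives, and the deposited counts are of uniquely assigned reads per transcript model. The stretch of coding sequence that the 4 described here share most is therefore shown. The 30 bases below come from the RefSeq annotation of TAIR10.1, are written 5′ to 3′ on the coding strand, and have in capitals the 21 positions that hold the same base in all 4 genes. In *CASP1* they lie at chr2:15160421-15160450 on the minus strand, in *CASP2* at chr3:3638475-3638504 on the plus strand, in *CASP4* at chr5:1877540-1877569 on the plus strand, and in *CASP5* at chr5:4967253-4967282 on the plus strand.
CASP1: CTtCCcTTCTTtACtCAgTTccTcCaGTTC
CASP2: CTtCCcTTCTTcACaCAgTTctTaCaGTTC
CASP4: CTcCCtTTCTTcACtCAgTTttTgCaGTTC
CASP5: CTgCCtTTCTTtACtCAaTTcaTaCgGTTC
Over the 6 pairs of aligned coding sequences 55.3 to 79.8% of the alignment columns, gaps included, held the same base, with *CASP2* and *CASP4* the closest pair. No pair shared an exact run longer than 20 bases. The lengths of the reads are not given in the sources used here. Each of these genes has 3 exons and a protein of 187 (*CASP5*) to 206 residues (*CASP1*).

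The libraries held about 7030000 to 7570000 reads, on 21384 to 21633 genes. *ARF7* itself had 3 reads in *arf7*-NAA, 8 in *arf7*-Mock, 12 in WT-NAA and 6 in WT-Mock, too few to check the genotype labels. The *arf7*-NAA library stood apart in markers of other organs. Its 7 seed genes had 396 reads, against 6 to 17 in the other libraries, and 6 of the 7 were detected in it. The cruciferin gene *CRA1* was listed in no library and so has no value. In *arf7*-NAA the 5 green shoot genes had 95.9 summed RPKM, against 14.2 to 46.4 in the other libraries. Each result that uses *arf7*-NAA rests on that 1 library and cannot be given without it, and the part of these markers in those results was not tested. With a single library per condition, every test below compares sequenced libraries and not the conditions, and its error is counting error only. RPKM is a read count divided by the library total and by transcript length.

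The Casparian strip genes differed widely in level. *CASP1* had the highest level in every library, and *CASP2* came next. *ESB1* had only 4 to 8 reads per library on its 1 listed transcript model, too few to give a level of the gene. *CASP1* had 242.7 RPKM in *arf7*-NAA, 238.9 in *arf7*-Mock, 378.2 in WT-NAA and 213.2 in WT-Mock. *CASP2* had 116.2 RPKM in *arf7*-NAA, 118.1 in *arf7*-Mock, 206.4 in WT-NAA and 109.1 in WT-Mock. For both genes WT-NAA stood above the other 3 libraries, whose values lay close together. The exact 95% Poisson interval of *CASP1* in WT-NAA, 363.2 to 393.6 RPKM, did not overlap that of any other library, the highest of which was 230.4 to 255.5 RPKM in *arf7*-NAA.

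The other measured members lay between 33.0 and 64.4 RPKM in all libraries. *CASP4* had 37.4 RPKM in *arf7*-NAA, 46.3 in *arf7*-Mock, 64.4 in WT-NAA and 42.1 in WT-Mock. *CASP5* had 43.8 RPKM in *arf7*-NAA, 40.0 in *arf7*-Mock, 60.5 in WT-NAA and 33.0 in WT-Mock. The highest of the 4 values was again that of WT-NAA for both of these genes. In WT-NAA the intervals of *CASP4*, *MYB36* and *CASP5* overlapped from neighbour to neighbour, so their order there is not resolved, and in WT-Mock the same held for *CASP4*, *SGN3* and *CASP5*. *CASP1* and *CASP2* were separate from each other and from the next gene in all 4 libraries.

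**Figure D1:**
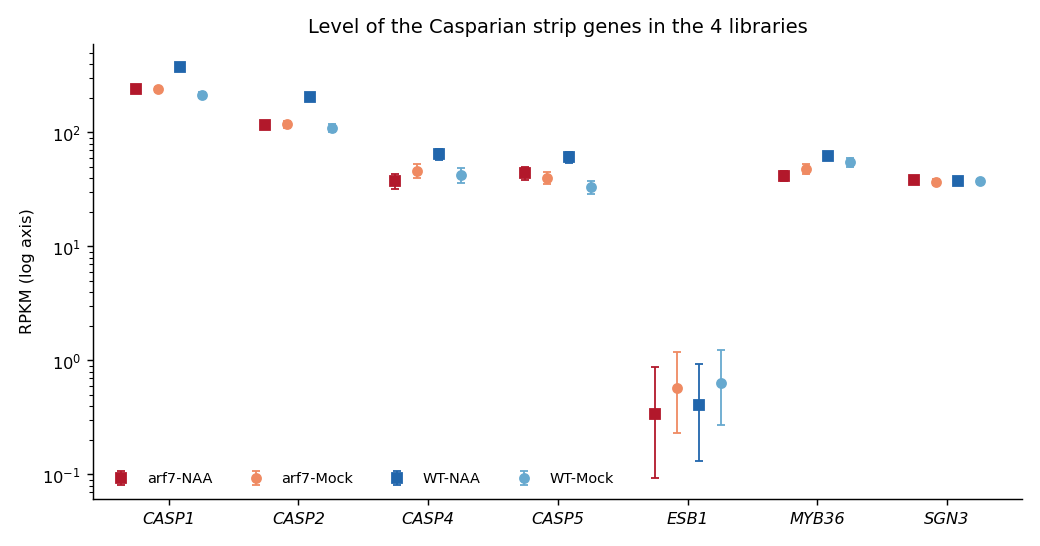
Level of the 7 Casparian strip genes in RPKM (log axis) in the 4 libraries, 1 point per library with its exact 95% Poisson interval, which covers counting error only. *CASP1* lies between 213.2 and 378.2 RPKM with WT-NAA highest. *ESB1* lies below 1 RPKM in all 4 libraries, from 4 to 8 reads on its only listed transcript model.

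The summed level of *CASP1*, *CASP2*, *CASP4* and *CASP5* was 440 RPKM in *arf7*-NAA, 443.4 in *arf7*-Mock, 709.5 in WT-NAA and 397.4 in WT-Mock. The makeup of that sum moved little: *CASP1* took 55.2% of it in *arf7*-NAA, 53.9% in *arf7*-Mock, 53.3% in WT-NAA and 53.6% in WT-Mock. *CASP2* took 26.4 to 29.1%, *CASP4* 8.5 to 10.6% and *CASP5* 8.31 to 9.94%. The share of *CASP2* was highest in WT-NAA.

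The NAA response in WT was a higher level of all 4 *CASP* genes, by 1.53-fold to 1.89-fold, whereas *SGN3* (1.02-fold) and *MYB36* (1.15-fold) did not pass the test. None of the 7 members met the study's rule for a differentially expressed gene (a log2 ratio of 1 or more in either direction, together with P under 0.0001), which 1.09% of the 22469 genes tested met when WT-NAA was set against WT-Mock. Without a limit on fold, a criterion set after the values were seen, 4 of 7 members were higher and 0 lower at P under 0.0001 by the exact binomial test. Of all genes tested 3.1% were higher and 3.45% lower, and of the 9402 genes with at least 400 reads over the 4 libraries, called deeply read below, 6.81% were higher. The median log2 ratio of the members was 0.61, against -0.02 over all genes.

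*CASP1* had 2398 reads in WT-NAA, against 1380 in WT-Mock, a log2 ratio of 0.83 (95% interval 0.73 to 0.92, exact binomial test, p = 5.2e-67). *CASP2* had 1266 reads in WT-NAA, against 683 in WT-Mock, and its log2 ratio of 0.92 (interval 0.79 to 1.06) was the largest of the members (exact binomial test, p = 5.3e-43). *CASP5* had 375 reads in WT-NAA, against 209 in WT-Mock, with a log2 ratio of 0.87 (interval 0.62 to 1.12, exact binomial test, p = 1.0e-12). These 3 genes lay at a similar height, and their intervals overlapped. *CASP4* had 291 reads in WT-NAA, against 194 in WT-Mock, a log2 ratio of 0.61 (interval 0.35 to 0.88, exact binomial test, p = 4.2e-06). Its interval overlapped those of these 3 genes too, so the order of the *CASP* responses is not resolved. Of the 9402 deeply read genes, 1.04% had a log2 ratio at least as high as that of *CASP1*, 0.723% one as high as that of *CASP2*, 2.79% one as high as that of *CASP4* and 0.83% one as high as that of *CASP5*. The test knows no spread between plants. When a biological coefficient of variation of 0.1 was assumed, edgeR's exact test kept *CASP1* (p = 9.0e-05) and *CASP2* (p = 2.3e-05) past the threshold, and with 0.2 it kept none of the members, the lowest p being 0.028 for *CASP2*.

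In *arf7* no *CASP* gene was higher under NAA beyond counting error. Of the 7 members 0 passed P under 0.0001 in *arf7*-NAA VS *arf7*-Mock in the exact binomial test, beside 4.58% of the 22557 genes tested (0.776% under the study's rule), and 2 had an unadjusted p under 0.05. A count of 0 among 7 genes lies near that share. *CASP1* had 1458 reads in *arf7*-NAA and 1477 in *arf7*-Mock, a log2 ratio of 0.02 (interval -0.08 to 0.13, exact binomial test, p = 0.68). *CASP2* had 675 reads in *arf7*-NAA and 706 in *arf7*-Mock, a log2 ratio of -0.02 (interval -0.18 to 0.13, exact binomial test, p = 0.77). For both genes the interval excludes, for counting error only, a response of the size seen in WT. Spread between plants is not part of it. *CASP5* had a log2 ratio of 0.13. *CASP4*, with 160 reads in *arf7*-NAA and 204 in *arf7*-Mock, had a log2 ratio of -0.31 (exact binomial test, p = 0.046).

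The NAA responses were then compared with each other, as the response in *arf7* minus the response in WT, by an exact conditional test on the reads of the 4 libraries. No member passed both P under 0.0001 and an absolute difference of at least 1, which 1.34% of 21601 genes passed. At P under 0.0001 and any size, 4 of 7 members were lower in *arf7*, beside 2.5% of all genes and 5.34% of the deeply read ones. The difference was -0.80 for *CASP1* (interval -0.95 to -0.66, exact test, p = 6.6e-29) and -0.94 for *CASP2* (interval -1.15 to -0.74, exact test, p = 7.6e-20). It was -0.92 for *CASP4* (interval -1.33 to -0.51, exact test, p = 6.3e-06) and -0.75 for *CASP5* (interval -1.11 to -0.38, exact test, p = 4.0e-05). With an assumed coefficient of variation of 0.1, 0 of the 7 members kept P under 0.0001 in edgeR's test of this difference, and the lowest p was 0.0021, for *CASP2*.

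**Figure D2:**
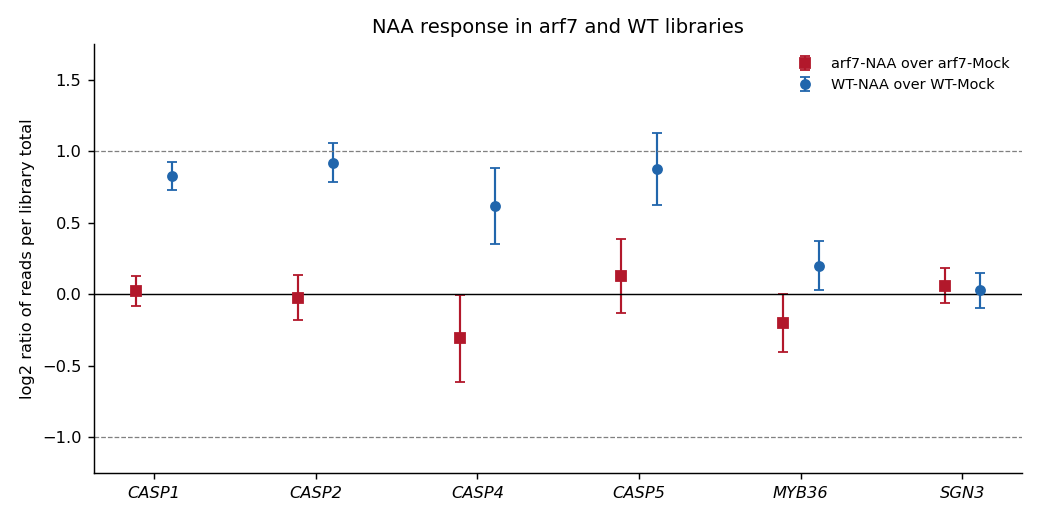
NAA response of 6 Casparian strip genes as the log2 ratio of reads per library total, *arf7*-NAA over *arf7*-Mock (squares) and WT-NAA over WT-Mock (circles), with exact 95% intervals for counting error and dashed lines at an absolute log2 ratio of 1. The WT ratios of the 4 *CASP* genes lie between 0.61 and 0.92 and their *arf7* ratios between -0.31 and 0.13; *ESB1* is left out for its few reads.

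*MYB36*, the activator of strip genes, had 41.7 RPKM in *arf7*-NAA, 47.9 in *arf7*-Mock, 62.8 in WT-NAA and 54.7 in WT-Mock. Both *arf7* libraries lay below both WT libraries, although the intervals of *arf7*-Mock (43.5 to 52.6 RPKM) and WT-Mock (50.2 to 59.6 RPKM) overlapped. Its log2 ratio under NAA was -0.20 in *arf7* (exact binomial test, p = 0.049) and 0.20 in WT (exact binomial test, p = 0.023), neither past the threshold. The difference between these responses was -0.40 (interval -0.67 to -0.13, exact test, p = 0.0032), also short of it. Of the deeply read genes 16.4% had a WT response at least as high as that of *MYB36*, against at most 2.79% for a *CASP* gene.

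*SGN3*, the receptor of the CIF peptides, had close values in the 4 libraries: 1073 reads (38.2 RPKM) in *arf7*-NAA, 1059 (36.6 RPKM) in *arf7*-Mock, 1122 (37.8 RPKM) in WT-NAA and 1125 (37.2 RPKM) in WT-Mock. The log2 ratio was 0.06 (interval -0.06 to 0.18) in *arf7*-NAA VS *arf7*-Mock and 0.03 (interval -0.09 to 0.15) in WT-NAA VS WT-Mock, and the exact binomial test gave p = 0.34 and p = 0.67. These intervals are narrow enough to exclude, for counting error, a response of the size of any *CASP* gene in WT. In the annotation *SGN3* overlaps AT4G20150 on the opposite strand by 337 bases, and that gene had 733 to 962 reads. Whether the libraries keep the strand is not stated in the sources used here, so reads of the shared stretch cannot be assigned to a strand.

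*ESB1*, a dirigent-domain protein that the strip needs for its lignin, could not be measured. It had 4 reads in *arf7*-NAA, 7 in *arf7*-Mock, 5 in WT-NAA and 8 in WT-Mock, which covered 9.03 to 14.41% of the only transcript model listed, AT2G28670.2. The gene has 2 annotated transcripts and shares 1772 bases with AT2G28671 on the opposite strand, which had 3 to 7 reads. No comparison of *ESB1* had an exact binomial p below 0.55, and the interval of its NAA response in WT ran from -2.61 to 1.15. Differences of the size seen for the *CASP* genes were therefore not detectable with these few reads. The deposited counts are of uniquely assigned reads per transcript model. Whether reads shared by the 2 transcripts of *ESB1* were left out was not tested. Its count is thus not read as the level of the gene.

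Without NAA the members' log2 ratios between the genotypes lay between -0.19 and 0.28. In *arf7*-Mock VS WT-Mock 0 of 7 members passed P under 0.0001 in the exact binomial test, beside 7.03% of the 22537 genes tested, although 3 had an unadjusted p under 0.05. A count of 0 among 7 genes lies near that share. *CASP1* had 1477 reads in *arf7*-Mock and 1380 in WT-Mock, a log2 ratio of 0.16 (interval 0.06 to 0.27, exact binomial test, p = 0.0024). *CASP5* had a log2 ratio of 0.28 (exact binomial test, p = 0.043). All 4 *CASP* genes had a positive ratio, while *MYB36* had -0.19 (exact binomial test, p = 0.042). Under the study's rule 1.04% of genes were differentially expressed here and no member was.

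Under NAA the *arf7* library had less of the 4 *CASP* genes and of *MYB36*. In *arf7*-NAA VS WT-NAA 5 of 7 members were lower at P under 0.0001 in the exact binomial test, beside 3.32% of the 22489 genes tested and 6.93% of the deeply read ones, and 0 met the study's rule, which 1.4% of genes met. *CASP2* had 675 reads in *arf7*-NAA and 1266 in WT-NAA, a log2 ratio of -0.83 (interval -0.97 to -0.69, exact binomial test, p = 7.1e-35). *CASP4* had 160 reads in *arf7*-NAA and 291 in WT-NAA, a log2 ratio of -0.79 (interval -1.07 to -0.50, exact binomial test, p = 1.8e-08). *CASP1* followed with -0.64 (exact binomial test, p = 9.4e-42), *MYB36* with -0.59 (exact binomial test, p = 4.2e-10) and *CASP5* with -0.47 (exact binomial test, p = 5.7e-05). *SGN3* had 0.01. This comparison shares WT-NAA with the NAA response in WT, so the values are not independent of it. With an assumed coefficient of variation of 0.1, 0 of the 7 members kept P under 0.0001 in edgeR's exact test.

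**Figure D3:**
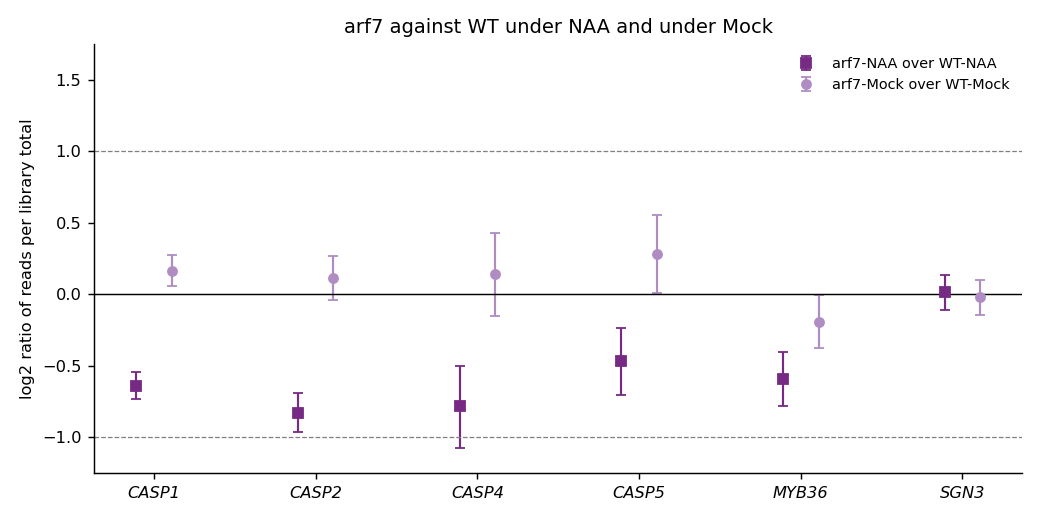
Log2 ratio of reads per library total of 6 Casparian strip genes, *arf7*-NAA over WT-NAA (squares) and *arf7*-Mock over WT-Mock (circles), with exact 95% intervals for counting error and dashed lines at an absolute log2 ratio of 1. *CASP1*, *CASP2* and *CASP4* lie between -0.64 and -0.83 under NAA and between 0.11 and 0.16 under Mock, and *SGN3* lies near 0 in both.

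The dirigent relatives of *ESB1*, which guide the coupling of lignin precursors, were also highest in WT-NAA. Of 5 genes 4 were higher in WT-NAA VS WT-Mock at P under 0.0001 (exact binomial test, any fold), beside 3.1% of all genes and 6.81% of the deeply read ones. In *arf7*-NAA VS *arf7*-Mock 0 passed, a count near the 4.58% of all genes in either direction, and the fifth, *DIR25*, had 1 read in all. *DIR24* had 276.0 RPKM in *arf7*-NAA, 274.0 in *arf7*-Mock, 454.5 in WT-NAA and 265.6 in WT-Mock. *DIR9* had 175.2 RPKM in *arf7*-NAA, 163.0 in *arf7*-Mock, 274.3 in WT-NAA and 153.5 in WT-Mock. Both stood high in WT-NAA alone, with log2 ratios in WT of 0.77 for *DIR24* (exact binomial test, p = 9.7e-92) and 0.84 for *DIR9* (exact binomial test, p = 7.6e-69). The differences between the responses, *arf7* minus WT, were -0.76 and -0.73, and all 4 measured dirigent genes passed P under 0.0001 in that exact test, beside 2.5% of all genes.

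The enzymes and copper proteins of lignin polymerisation at the strip were mixed. Of 12 genes 6 were higher and 1 lower in WT-NAA VS WT-Mock at P under 0.0001 (exact binomial test, any fold), beside 3.1% and 3.45% of all genes. All 12 were deeply read, and of the deeply read genes 6.81% were higher. The median log2 ratio of the list was 0.26 against -0.02 over all genes. In *arf7*-NAA VS *arf7*-Mock 0 of the list were higher and 1 was lower, beside 1.99% and 2.58% of all genes. *PRX9*, a class III peroxidase, was the only one to meet the study's rule. It had 287 reads in *arf7*-NAA, 283 in *arf7*-Mock, 509 in WT-NAA and 247 in WT-Mock, a log2 ratio of 1.07 in WT (exact binomial test, p = 4.6e-23) and a difference between the responses of -1.01 (exact test, p = 9.4e-10). The other genes that were higher are given here after their values were seen: the uclacyanin gene *UCC1* at a log2 ratio of 0.78, the laccase genes *LAC1* at 0.75 and *LAC3* at 0.57, and the peroxidase genes *PER64* at 0.63 and *PRX3* at 0.31. *UCC2*, the most abundant gene of the list, went the other way: it had 785.4 RPKM in *arf7*-NAA, 764.0 in *arf7*-Mock, 811.8 in WT-NAA and 992.0 in WT-Mock, a log2 ratio of -0.29 in WT (exact binomial test, p = 4.9e-30).

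Of 7 genes of the CIF and SGN signalling list 0 were higher and 2 lower in WT-NAA VS WT-Mock at P under 0.0001 (exact binomial test, any fold), beside 3.1% and 3.45% of all genes. A count of 0 higher among 7 genes lies at that background. Of the 7 genes 5 were deeply read, and the share of deeply read genes that were lower is not given here. In this comparison 3 of the 7 had a positive log2 ratio, among them the receptor kinase gene *GSO2* at 0.55 (exact binomial test, p = 0.017) and the kinase gene *SGN1* at 0.13 (exact binomial test, p = 0.0016). *RBOHD*, an NADPH oxidase gene, was lower under NAA in both genotypes and met the study's rule in WT: it had 520 reads in *arf7*-NAA against 897 in *arf7*-Mock, and 457 in WT-NAA against 978 in WT-Mock, log2 ratios of -0.74 (exact binomial test, p = 1.5e-21) and -1.07 (exact binomial test, p = 1.5e-41). At P under 0.0001 in *arf7*-NAA VS *arf7*-Mock 0 of the list were higher and 2 lower, beside 1.99% and 2.58% of all genes. The other lower gene, named after its values were seen, was *RBOHF*, with a log2 ratio of -0.35 in *arf7* (exact binomial test, p = 3.0e-09). In WT its ratio was -0.14 (exact binomial test, p = 0.015), short of the threshold. *CIF2*, a peptide ligand of *SGN3*, had 170.9 RPKM in *arf7*-NAA, 171.1 in *arf7*-Mock, 182.3 in WT-NAA and 243.4 in WT-Mock. WT-Mock was thus the highest library for the ligand, with a log2 ratio of -0.42 in WT (exact binomial test, p = 1.9e-09). *SGN1* was lower in *arf7* with and without NAA, at log2 ratios of -0.66 against WT-NAA and -0.43 against WT-Mock. Of the genes that place the strip, *LOTR1* had a log2 ratio of 0.15 in WT that did not pass the threshold and *EXO70A1* had at most 3 reads.

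Among 8 endodermal transcription factor genes 1 was higher and 0 lower at P under 0.0001 in the WT comparison under NAA, beside 3.1% and 3.45% of all genes. This was *SCR*, which specifies the endodermis, with 990 WT-NAA reads against 824 in WT-Mock and a log2 ratio of 0.29 (exact binomial test, p = 1.5e-05). Of the 8 genes 7 were deeply read, and of the deeply read genes 6.81% were higher. A count of 1 among 8 lies near that share. *JKD*, a zinc finger partner of SCR, had a log2 ratio of 0.25 in WT (exact binomial test, p = 2.0e-04). *MYB68*, a relative of *MYB36*, had 384 reads in *arf7*-NAA, 619 in *arf7*-Mock, 551 in WT-NAA and 525 in WT-Mock. It was the only gene of this list past the threshold in *arf7*-NAA VS *arf7*-Mock, a count near the 4.58% of all genes that passed there. Its log2 ratio in that comparison was -0.65 (exact binomial test, p = 3.1e-12), and its response differed between the genotypes by -0.75 (exact test, p = 6.8e-09).

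Among genes of suberin, a further endodermal barrier, and of the wider CASP-like family, more passed the test as lower than as higher in WT-NAA VS WT-Mock. Of 13 suberin genes 4 were lower and 2 higher at P under 0.0001 (exact binomial test, any fold), beside 3.45% and 3.1% of all genes. Of the 13 genes 9 were deeply read, and of the deeply read genes 6.81% were higher. The share of deeply read genes that were lower is not given, so the count of 4 lower has no background matched for depth. *CYP86A1*, a fatty acid hydroxylase of suberin synthesis, had 243.7 RPKM in *arf7*-NAA, 194.8 in *arf7*-Mock, 160.8 in WT-NAA and 256.3 in WT-Mock. It was higher under NAA in *arf7*, with a log2 ratio of 0.32 (exact binomial test, p = 9.1e-17), and lower in WT, with -0.67 (exact binomial test, p = 9.4e-66). The largest value of the list belonged to *CDEF1*, a cutinase-type enzyme, with 64 reads in *arf7*-NAA, 57 in *arf7*-Mock, 1575 in WT-NAA and 334 in WT-Mock, a log2 ratio of 2.27 in WT that met the study's rule. *KCS20*, a fatty acid elongase gene, had a log2 ratio of 0.17 in WT (exact binomial test, p = 1.5e-05). *FAR1*, a reductase gene, met the rule in *arf7*-Mock VS WT-Mock alone, with 17 reads in *arf7*-Mock and 67 in WT-Mock, a log2 ratio of -1.91.

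The CASP-like family outside the *CASP* genes proper holds 33 genes with reads, 29 of them with enough for a ratio. In WT-NAA VS WT-Mock 0 were higher and 5 lower at P under 0.0001 (exact binomial test, any fold), beside 3.1% and 3.45% of all genes. In *arf7*-NAA VS *arf7*-Mock 4 were higher and 0 lower, beside 1.99% and 2.58% of all genes. The counts of 0 lie near those shares. Of the family 13 genes were deeply read, and such genes pass the test more often: in WT 6.81% of them were higher. The share of deeply read genes that were lower is not given here. *CASPL1B1* (AT5G44550), the most abundant, had 652.0 RPKM in *arf7*-NAA, 568.7 in *arf7*-Mock, 463.0 in WT-NAA and 698.3 in WT-Mock. Its log2 ratio was 0.20 in *arf7* (exact binomial test, p = 3.7e-09) and -0.59 in WT (exact binomial test, p = 5.7e-69), so that its lowest library was the one in which *CASP1* was highest. *CASPL1D2*, *CASPL1D1* and *CASPL1B2* had log2 ratios of 0.55, 0.43 and 0.27 in *arf7* and of -0.22, -0.26 and -0.28 in WT, all past the threshold. *CASPL4D1* had log2 ratios of -0.07 in *arf7* and 0.22 in WT, neither past it. *CASPL1E1*, with 11 reads in *arf7*-NAA and 57 in WT-NAA, met the study's rule in *arf7*-NAA VS WT-NAA at a log2 ratio of -2.30 (exact binomial test, p = 3.1e-08).

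**Figure D4:**
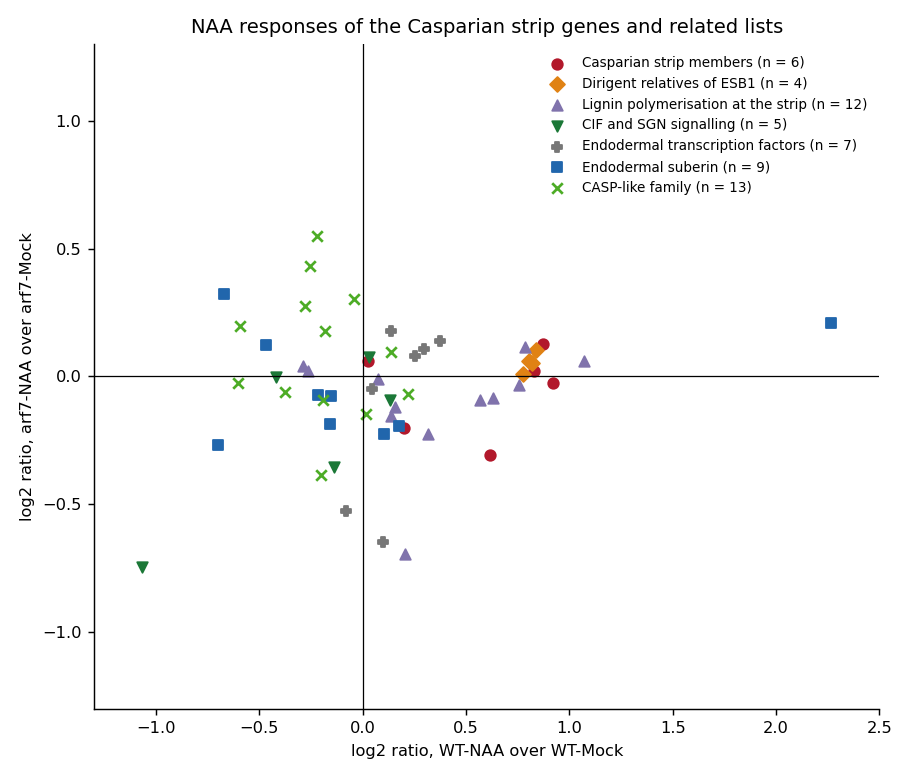
NAA response in WT (x axis, log2 ratio of WT-NAA over WT-Mock) and in *arf7* (y axis, log2 ratio of *arf7*-NAA over *arf7*-Mock) of Casparian strip genes and related lists, 1 point per gene with at least 400 reads over the 4 libraries. The 4 *CASP* genes and 4 dirigent genes lie at 0.61 to 0.92 on the x axis and at -0.31 to 0.13 on the y axis, and *CDEF1* is the point at 2.27.

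Of 8744 other genes 23 (0.263%) lay closer to the members' median pattern than any member. The measure was the Euclidean distance between centred log2 RPKM values over the 4 libraries, taken to the median profile of the 7 members, among 8750 genes with at least 100 reads in each library. The nearest were AT3G22240, annotated as an unknown protein, at 0.061, the protein kinase family gene AT5G65530 at 0.082, the heavy metal transport family gene AT3G05920 at 0.086, AT3G50640, another unknown protein, at 0.093 and *LNG1* at 0.096. AT3G22240 had 134.1 RPKM in *arf7*-NAA, 140.9 in *arf7*-Mock, 213.7 in WT-NAA and 132.3 in WT-Mock. The members themselves lay at 0.153 (*CASP4*) to 0.526 (*SGN3*) from that median, with *ESB1* at 1.018. With 4 libraries a profile has few values, and closeness to it is a description.

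The promoters of the members, taken as 250 bases before to 50 after the annotated start, were searched on both strands for the auxin response elements TGTCTC and TGTCGG and for the G-box CACGTG. The auxin response elements share their first 4 letters, and either can overlap the G-box at its ends. Each motif was counted on its own. The 4 *CASP* genes and *ESB1* held 0 of the 3 motifs in this window. Of all 27443 promoters 14.2% held TGTCTC, 5.12% TGTCGG and 7.68% CACGTG. The 2 members with a match to TGTCTC were *MYB36* and *SGN3*, with 1 each. Their windows are shown, as the only matches among the members, with the motif in capitals, at chr5:23334546-23334575 for *MYB36*, where TGTCTC reads on the opposite strand, and at chr4:10883787-10883816 for *SGN3*, both plus-strand genes in TAIR10.1.
MYB36: attattaaaactGAGACAacttttaacctt
SGN3: aattatataacaTGTCTCcacggacgaata
A match is a string of letters and not a bound site, and these windows hold only a part of each promoter.

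Some markers of other root cell types also moved in WT-NAA. The 2 cortex genes had 30.9 summed RPKM in *arf7*-NAA, 16.6 in *arf7*-Mock, 46.9 in WT-NAA and 27.4 in WT-Mock, and both were higher in WT-NAA VS WT-Mock at P under 0.0001. The 4 epidermis and root hair genes had 89.4 summed RPKM in *arf7*-NAA, 83.2 in *arf7*-Mock, 104 in WT-NAA and 70.5 in WT-Mock, and 2 of them were higher in that comparison. Of all genes tested 3.1% were higher there, and of the deeply read ones 6.81%. The 8 stele genes had 251 summed RPKM in *arf7*-NAA against 291 in *arf7*-Mock, and 243 in WT-NAA against 303 in WT-Mock, most of it from *PHO1*, a phosphate exporter gene. Of these genes 3 were lower and 0 higher in WT-NAA VS WT-Mock at P under 0.0001 (exact binomial test, any fold), beside 3.45% and 3.1% of all genes. By the same test 1 was lower and 0 higher in *arf7*-NAA VS *arf7*-Mock, beside 2.58% and 1.99% of all genes. A count of 1 lower among 8 genes lies near that share. Of the 8 stele genes 4 were deeply read, and the share of deeply read genes that were lower is not given here. All members of these lists had reads in all libraries. In *arf7* 1 of the 2 cortex genes was higher under NAA, beside 1.99% of all genes: *AED3* had 310 reads in *arf7*-NAA, against 166 in *arf7*-Mock (log2 ratio 0.94, exact binomial test, p = 4.1e-12). The other, *CO2*, had 30 reads in *arf7*-NAA and 22 in *arf7*-Mock (log2 ratio 0.49, exact binomial test, p = 0.27). The 4 root cap genes lay between 20.5 and 26.6 summed RPKM, and the 5 lateral root initiation genes had 19.7 in *arf7*-NAA, 15.6 in *arf7*-Mock, 38.8 in WT-NAA and 25.6 in WT-Mock. The part of these markers in the members' results was not tested, and in bulk root RNA fewer cells of a type and less RNA per cell cannot be told apart. The defining genes of the endodermis, *SCR* at 43.4 to 53.2 RPKM and the *CASP* genes, were present in all libraries.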

How the data were processed

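Root RNA of 4 conditions was sequenced with 1 library each. The authors deposited, per transcript model, the count of uniquely assigned reads, the RPKM and the percent of the transcript length covered; the aligner and genome build are not given in the sources used here. Deposited gene coordinates overlapped those of TAIR10.1 for 23233 of 23239 genes. The 16 per-sample columns of the authors' comparison tables, which also hold their log2 ratios and p-values, were not used.

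Counts and deposited RPKM were each summed per gene over its transcript models. RPKM recomputed per model from the counts matched the deposited values. For a pair of libraries, the share of a gene's reads in each was tested against their totals (exact binomial test, two-sided), with Clopper-Pearson 95% intervals, and the NAA responses were compared by an exact conditional test (Python 3.11.15, SciPy 1.17.1). Counts of 0 became 3 in ratios, and no ratio was formed where both libraries had at most 3 reads. Thresholds were those of the study. The tests were checked on simulated data. A further gene of the set is not reported here, and counts and medians of members leave it out. Members and lists were chosen with earlier results of these data known. Named genes are the members, called genes of each list, the 2 genes of each list with most RPKM (5 for the CASP-like family) and the 5 nearest in pattern. No promoter table was used: promoters came from the RefSeq genome and annotation. Alternatives were edgeR 4.0.16 TMM scaling and DESeq2 1.42.0 size factors (R 4.3.3), a minimum of 10 reads, a Benjamini-Hochberg adjusted p under 0.001, a pseudocount of 1 RPKM, the transcript model with most reads, and edgeR's exact test with assumed coefficients of variation of 0.1, 0.2 and 0.4. The criterion at any fold and the set of genes with at least 400 reads were added after seeing the data.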

Additional observations from a re-analysis of the deposited data

Results flagged for a closer look

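The NAA response differed between the genotypes for 4 Casparian strip genes at P under 0.0001 in the exact conditional test on the 4 libraries. The difference, *arf7* minus WT on the log2 scale, was -0.80 for *CASP1*, -0.94 for *CASP2*, -0.92 for *CASP4* and -0.75 for *CASP5*. The *arf7*-NAA library on which these differences rest also held 396 reads of seed genes, against 6 to 17 in the others, and the part of this in the differences was not tested.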

How the results depend on the processing

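Over 310 values of the 7 members under alternatives, 273 kept direction and side of the threshold, 37 lost the threshold, and 0 gained it or changed direction. Most of these values were short of the threshold as reported and had none to lose. Each member has 1 listed transcript model, so the model with most reads repeats the reported values. The minimum of reads and the pseudocount leave the p-values as reported. The count of kept values is therefore no measure of robustness. Scaling moved the median log2 ratio of all genes by at most 0.02. The losses came with an assumed biological spread in edgeR or its counterpart for the difference between responses. With coefficients of variation of 0.1, 0.2 and 0.4, the members past P under 0.0001 at any fold numbered 2, 0 and 0 in WT-NAA VS WT-Mock, against 4 with counting error only. They numbered 0, 0 and 0 in *arf7*-NAA VS WT-NAA, against 5, and 0, 0 and 0 for the difference between the NAA responses, against 4. The genes meeting the study's rule numbered 27 at 0.2 and 2 at 0.4 in WT-NAA VS WT-Mock, against 244 with counting error only. They numbered 46 and 8 in *arf7*-NAA VS *arf7*-Mock, against 175, then 45 and 1 in *arf7*-Mock VS WT-Mock, against 235, and 96 and 17 in *arf7*-NAA VS WT-NAA, against 314. For the difference between the NAA responses they numbered 138, 43 and 1 at 0.1, 0.2 and 0.4, against 289. No paired analysis was possible because each condition has a single library. *ESB1*, with 4 to 8 reads on its only listed transcript model, stays unmeasured.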
